A study of Mus musculus with 3 samples.

Results

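Gamma-delta T cells of mouse skin were selected from 3 single-cell libraries as barcodes with at least 200 detected genes, at most 20% of counts from mitochondrial genes, at least 2 counts over Cd3e, Cd3d and Cd3g, at least 1 count of Trdc, at most 1 count of Lyz2 and no count of Col1a2. Trdc encodes the constant region of the receptor's delta chain and the Cd3 genes its signalling subunits, while Lyz2 marks myeloid cells and Col1a2 fibroblasts. This gave 175 cells of 20728 that passed the filters, from 20834 barcodes. The tissue was whole skin from C57BL/6 mice aged 9 weeks, run on the Singleron GEXSCOPE kit, and each group is 1 library. The control library is unirradiated skin with saline and gave 108 cells. The UV library is irradiated skin with saline and gave 35 cells, and the third, irradiated skin given VD, gave 32 cells. VD is taken to mean vitamin D, which the series title names together with UVB and the inflammation of photoaging. The number of mice behind a library, the UV dose and the vitamin D dose are not given in the sources used here. With 1 library a group no difference could be tested across animals, so every comparison describes these libraries. Square brackets hold 95% intervals, which cover counting error only.

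Gamma-delta T cells recognise their targets through a receptor of a gamma and a delta chain, and many of them settle in tissues before or soon after birth. In mouse skin most are dendritic epidermal T cells (DETC), which lie between keratinocytes, carry a nearly invariant receptor, sense stressed keratinocytes through natural killer type receptors such as NKG2D, and can release growth factors, chemokines and cytotoxic granules. A smaller dermal population makes interleukin-17. Both kinds can use the delta variable segment encoded by Trdv4. The gamma constant region most used by DETC is encoded by Tcrg-C1, and Tcrg-C2 and Tcrg-C4 encode alternatives that are joined to other gamma variable segments.

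Sequences of Tcrg-C1, Tcrg-C2, Tcrg-C4 and Trdv4, receptor segments compared below, are shown here. The reading of the Tcrg counts rests on how alike those gamma segments are. The sequences were matched by symbol to the mouse annotation GENCODE M21 on GRCm38, and each is the first 120 coding bases. Capitals in Tcrg-C2 and Tcrg-C4 mark bases that differ from Tcrg-C1 in the alignment.
Tcrg-C1 (chr13:19214103-19214222, plus strand): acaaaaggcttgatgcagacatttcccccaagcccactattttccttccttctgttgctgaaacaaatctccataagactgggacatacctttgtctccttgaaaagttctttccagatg
Tcrg-C2 (chr13:19307432-19307551, minus strand): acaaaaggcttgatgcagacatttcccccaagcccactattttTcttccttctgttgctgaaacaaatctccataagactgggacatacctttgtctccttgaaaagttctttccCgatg
Tcrg-C4 (chr13:19344558-19344677, plus strand): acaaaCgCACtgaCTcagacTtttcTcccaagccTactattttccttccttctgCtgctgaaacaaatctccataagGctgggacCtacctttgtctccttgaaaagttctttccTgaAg
Trdv4 (coding span chr14:54075004-54075515 with an intron, plus strand): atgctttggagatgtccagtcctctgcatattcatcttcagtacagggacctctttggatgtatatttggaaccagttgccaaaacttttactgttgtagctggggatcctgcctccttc
Over the whole coding sequence, Tcrg-C1 and Tcrg-C2 matched at 487 of 500 aligned bases (97.4%), with 2 differences in the stretch shown. Tcrg-C1 and Tcrg-C4 matched at 413 of 512 (80.7%), with 14 differences in the stretch shown. Counts of Tcrg-C1 and Tcrg-C2 are therefore uncertain wherever a read does not cover a difference, and the sources used here do not say how such reads were assigned.

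The libraries kept 9078, 5451 and 6199 cells in the order control, UV, UV plus vitamin D, and their lowest barcode totals were 2822, 3010 and 3409 counts. The gamma-delta T cells held 853516, 212911 and 373229 counts in all, with medians of 7134.5, 3858 and 10118 per cell and ranges of 2849 to 22098, 3035 to 31914 and 3464 to 27022. Between 37 and 66 barcode sequences occurred in both tables of a pair of libraries, and no selected cell was shared. Values near the thresholds were as follows. Trdc was at a single count in 4 control cells, 4 UV cells and 2 UV plus vitamin D cells, and the Cd3 sum was at 2 in 14, 2 and 2. Outside the thresholds, 10, 1 and 5 barcodes with Trdc had a Cd3 sum of 1, and 93, 17 and 43 had Trdc with no Cd3 count. Among barcodes that met the Cd3 and Trdc thresholds, 8 control, 12 UV and 3 UV plus vitamin D barcodes were left out for Lyz2 or Col1a2.

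Most of the selected control and UV plus vitamin D cells carried keratinocyte RNA at close to the level of keratinocytes themselves. Counts from 23 keratinocyte markers made up a median of 7.28% of a control cell (range 0.617% to 15.6%), 0.700% of a UV cell (0.142% to 15.8%) and 11.3% of a UV plus vitamin D cell (0.567% to 16.7%). Keratinocytes, taken as barcodes with at least 20 counts over Krt5, Krt14, Krt1 and Krt10 and none of Cd3 or Trdc, had medians of 9.89%, 12.6% and 12.4%. A cut at 2%, set after seeing the data, split the cells into a low and a high set. Gaps also lay above the cut, in UV from 7.01% to 10.9%. The highest value under 2% was 0.938%, 0.891% and 1.14%, and the lowest above it 2.54%, 2.31% and 3.98%. Under 2% lay 5 of 108 control cells, 21 of 35 UV cells and 5 of 32 UV plus vitamin D cells. The low set also had fewer counts, with medians of 3580, 3615 and 3568, against 7297, 6193.5 and 11599 in the high set. The high set therefore holds T-cell receptor RNA together with keratinocyte RNA, and its counts cannot be read as those of gamma-delta T cells alone. The source of the keratinocyte RNA was not tested, and no doublet caller was run.

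**Figure D1:**
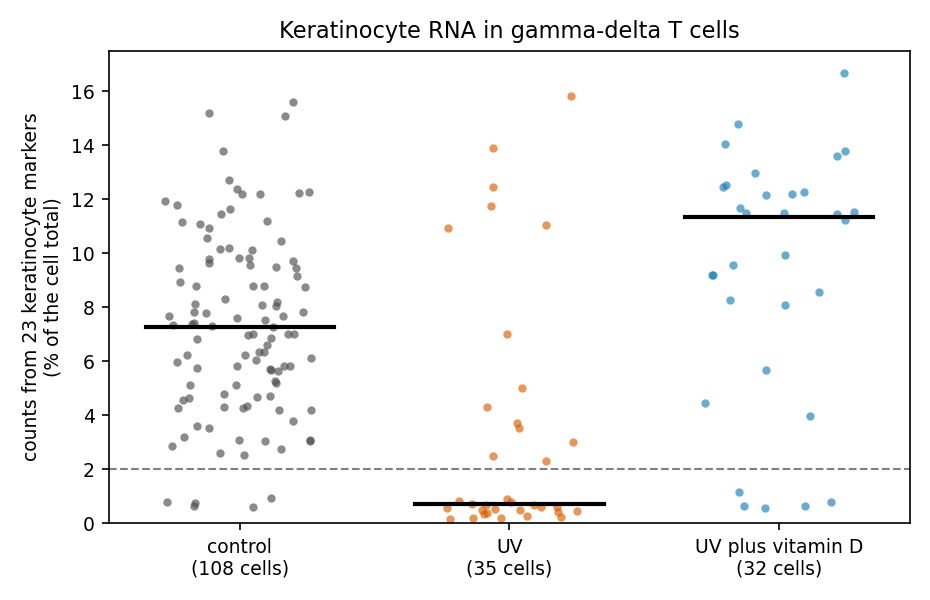
Percentage of each gamma-delta T cell's counts that came from 23 keratinocyte marker genes, 1 point a cell, in the 3 libraries; black bars are medians and the dashed line is at 2%. The control and UV plus vitamin D cells lie mostly above the line, with medians of 7.28% and 11.3%, and the UV cells are split, with 21 of 35 below it.

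A group of 153 T-cell genes was chosen because their mean level over the gamma-delta T cells was at least 20 times that of keratinocytes, leaving out the genes of the gate, so their contrast with keratinocytes follows from the choice. The mean was taken over the 3 libraries, so a gene high mainly in UV could enter through UV. Tallies of these genes in comparisons with UV can be tilted by that choice. They took 1.23% of the counts in control, 3.22% in UV and 1.15% in UV plus vitamin D cells. In keratinocytes the same genes took 0.0140%, 0.0360% and 0.0107%. In the low set they took 5.38%, 6.51% and 7.92%, and in the high set 1.14%, 1.28% and 0.788%. The low set held 60.0% of UV cells, 4.63% of control cells and 15.6% of UV plus vitamin D cells. Levels are given below as CPM, the counts of a gene summed over a library's gamma-delta T cells and scaled to the same total in every library, and also relative to the summed counts of the 153 T-cell genes, called T-cell scaling here. Dividing by their own sum places the T-cell genes as a whole near no difference, with some higher and some lower, so this scale shows only which genes stand apart from the others. Log2 ratios were taken after adding a pseudocount of 10, and the 3 comparisons share libraries.

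Gamma-delta T cells made up 1.19% [0.977, 1.43] of control cells, 0.642% [0.448, 0.892] of UV cells and 0.516% [0.353, 0.728] of UV plus vitamin D cells. The UV share was 1.85-fold lower than control [1.27, 2.71] and the UV plus vitamin D share 2.30-fold lower [1.56, 3.41]. The UV plus vitamin D share was 0.804 of the UV share [0.498, 1.30], an interval that includes no difference. Depth per cell differed between the libraries. With the gate applied after thinning each cell to 2500 counts, 61, 26 and 20 cells were selected. The log2 ratio of the UV share to control was then -0.49, against -0.89 without thinning. Among the unthinned cells with keratinocyte markers under 2%, the order of the shares was not that of all gamma-delta T cells. These were 0.0551% [0.0179, 0.128] of control, 0.385% [0.239, 0.588] of UV and 0.0807% [0.0262, 0.188] of UV plus vitamin D cells. Cells at or above 2% were 1.13%, 0.257% and 0.436%. As shares of kept cells of any kind, the whole libraries differed the same way. Keratinocyte markers were under 2% in 341 of 9078 control, 1607 of 5451 UV and 288 of 6199 UV plus vitamin D cells. Gamma-delta T cells were 1.47%, 1.31% and 1.74% of those. The part of this difference between the libraries in the gamma-delta share was not tested.

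Alpha-beta T cells, taken by the same thresholds but with no Trdc count and at least 2 counts over Trac, Trbc1 and Trbc2, were more frequent in both irradiated libraries than in control. There were 5 in control, 85 in UV and 19 in UV plus vitamin D, or 0.0551%, 1.56% and 0.307% of cells. The UV share was 28.3-fold higher than control [11.5, 69.7], and the UV plus vitamin D share was 5.09-fold lower than UV [3.10, 8.35]. Gamma-delta cells were accordingly 83.7% [76.2, 89.6] of all cells with a Cd3 sum of at least 2 in control, 21.1% [15.1, 28.1] in UV and 52.5% [39.3, 65.4] in UV plus vitamin D. Like the gamma-delta cells, the alpha-beta cells of the UV library were mostly low in keratinocyte RNA, with 69 of 85 under 2%, against 0 of 5 in control and 8 of 19 in UV plus vitamin D.

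**Figure D2:**
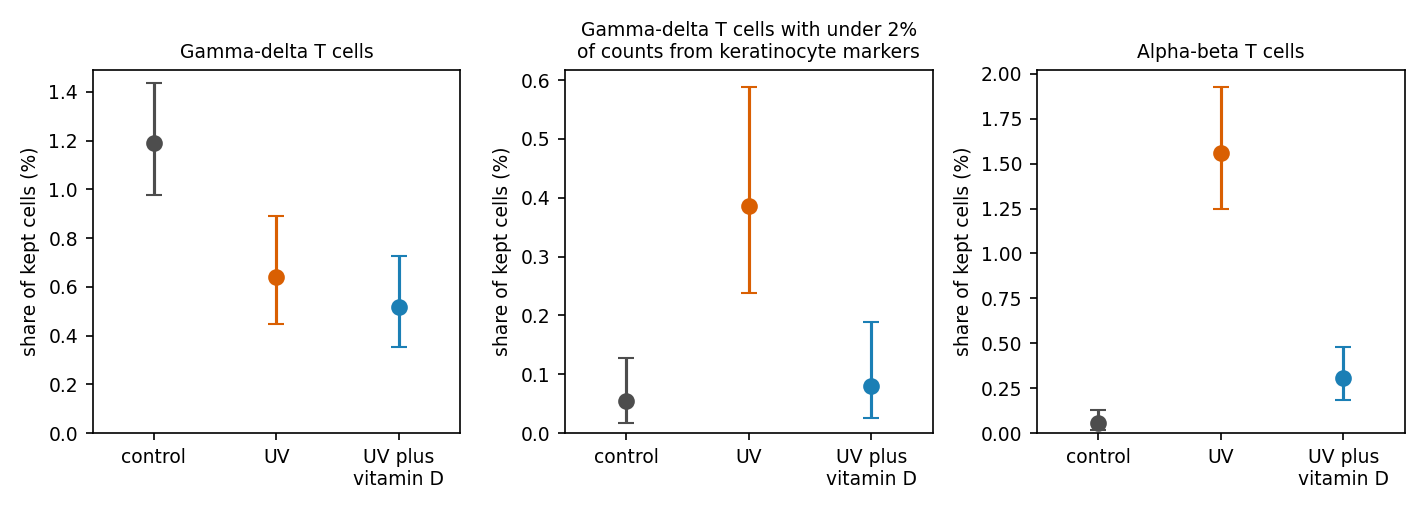
Share of kept cells (%) in each library for all gamma-delta T cells, for gamma-delta T cells with under 2% of counts from keratinocyte markers, and for alpha-beta T cells; points are shares and bars exact binomial 95% intervals. The panels differ in order: control is highest at 1.19% for all gamma-delta T cells, and UV is highest for the other groups.

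The markers fixed for the cell type were Trdc, Tcrg-C1, Cd3e and Cd3g. The gate required Trdc and Cd3 counts, so their presence follows from the selection. Tcrg-C1, not used by the gate, had a count in 84.3% of control, 65.7% of UV and 87.5% of UV plus vitamin D cells. Trdc, used to choose the cells, had a median of 6, 4 and 8.5 counts and a maximum of 28, 44 and 40. The genes below were not used by the gate. Cd7, a surface receptor of innate-like T cells, had a count in 91.7% of control, 82.9% of UV and 93.8% of UV plus vitamin D cells. Fcer1g, the signalling adaptor that DETC use beside the Cd3 chains, had a count in 83.3%, 88.6% and 90.6%. With every cell thinned to 2500 counts, the Fcer1g shares were 63.0% [53.1, 72.1], 82.9% [66.4, 93.4] and 62.5% [43.7, 78.9], against 1.07%, 3.95% and 0.499% of keratinocytes. Thinning evens the total counts of cells but not the part taken by keratinocyte RNA, which differed between the libraries. How far that part shaped this and the other thinned shares of T-cell genes was not tested. At least 3 of Fcer1g, Xcl1, Cd7 and Nkg7 were counted in 84 of 108 control cells (77.8%), 30 of 35 UV cells (85.7%) and 26 of 32 UV plus vitamin D cells (81.2%). Xcl1 is a chemokine for cross-presenting dendritic cells and Nkg7 a protein of cytotoxic granules. None of the 4 was counted in 0, 3 and 1 cells. Several products for which DETC are known were not detected in these cells: the growth factors Fgf7 and Igf1 had 0 counts in all 3 libraries, where 3 counts would be 3.51, 14.1 and 8.04 CPM. The DETC list held 32 symbols, of which 25 had any count. Those without a count include Trgv5, Amica1 and Cd244a, which are alternative symbols of the listed Tcrg-V5, Jaml and Cd244. Of the alpha-beta lineage genes, Cd4 and Foxp3 were at 0 everywhere and Cd8a had 0, 6 and 2 counts, each from a single cell. Trac, the alpha chain constant region, had 14, 7 and 11 counts. A sum of at least 2 counts over Trac, Trbc1 and Trbc2, the alpha and beta constant regions, was nevertheless found in 48 of 108 control cells (44.4%), 21 of 35 UV cells (60.0%) and 26 of 32 UV plus vitamin D cells (81.2%). Trbc2 was at 121, 301 and 198 CPM in gamma-delta T cells and at 102, 115 and 147 CPM in keratinocytes. Of 4 measured genes of the alpha-beta list, 2 were past 2-fold higher in UV than in control, Tcf7 and Trbc2, and 0 lower, with a median log2 ratio of 0.97. Whether some of the selected barcodes also hold alpha-beta T cells was not tested.

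**Figure D3:**
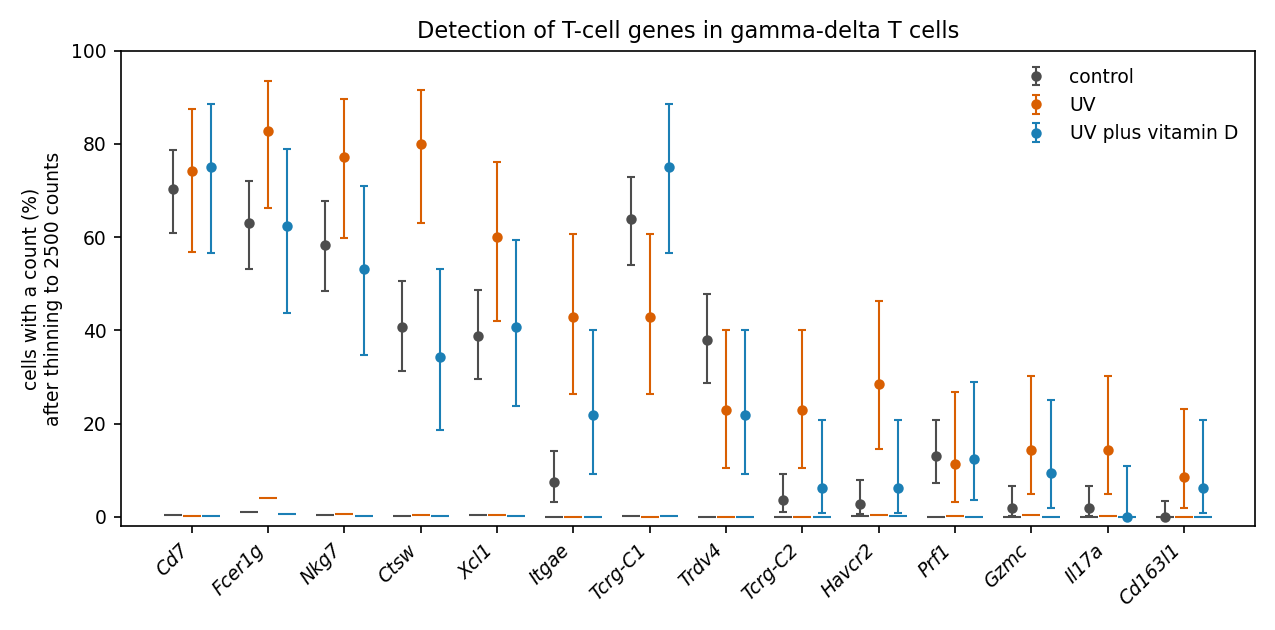
Share of gamma-delta T cells with a count of each of 14 genes after thinning every cell to 2500 counts, by library, with exact binomial 95% intervals; short dashes are the same share in keratinocytes. Ctsw and Itgae are higher in UV at 80.0% and 42.9%, Trdv4 is highest in control at 38.0%, and Il17a and the granzyme Gzmc are in few cells. Thinning does not even out keratinocyte RNA, whose median part of a cell's counts was lowest in UV.

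Among the receptor chains, the delta variable segment Trdv4 was lower in both irradiated libraries than in control. Trdv4 had 158 counts in 64 control cells (185 CPM [157, 216]), 26 counts in 9 UV cells (122 CPM [79.8, 179]) and 32 counts in 17 UV plus vitamin D cells (85.7 CPM [58.6, 121]). The log2 ratio of UV to control was -0.56 in CPM, and with T-cell scaling it was -1.85. It was -1.90 among cells low in keratinocyte RNA and -1.23 among the others, so the direction was the same in each set. Thinned to 2500 counts, 38.0% [28.8, 47.8] of control, 22.9% [10.4, 40.1] of UV and 21.9% [9.28, 40.0] of UV plus vitamin D cells had a Trdv4 count, with overlapping intervals, against 0.0386%, 0.0304% and 0.0192% of keratinocytes. Unthinned shares were 59.3%, 25.7% and 53.1%. UV plus vitamin D was 2.16-fold lower than control in CPM [1.47, 3.26]. Against UV its log2 ratio was -0.46 in CPM and 0.89 with T-cell scaling.

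The gamma constant regions did not move together. Tcrg-C1 had 397 counts in 91 control cells, 106 in 23 UV cells and 205 in 28 UV plus vitamin D cells, or 465, 498 and 549 CPM, which are within 1.18-fold of each other. Relative to the T-cell genes it was lower in UV than in control (log2 ratio -1.27) and higher in UV plus vitamin D than in UV (1.60). Per CPM within the sets, UV plus vitamin D was above UV in both (1.82 in the low set and 1.11 in the high set), and UV was below control in the high set (-1.36) and not in the low set (0.33). Without cells with at least 2 alpha-beta receptor counts, Tcrg-C1 was instead past 2-fold higher in UV than in control in CPM (14 and 60 cells). The direction of Tcrg-C1 between UV and control thus depended on the cells and scale used. Tcrg-C2 had 13 counts in 9 control cells, 32 in 12 UV cells and 7 in 6 UV plus vitamin D cells. Its CPM of 15.2, 150.3 and 18.8 put UV 9.87-fold above control [5.04, 20.5] and 8.01-fold above UV plus vitamin D [3.47, 21.5]. With T-cell scaling the log2 ratios were 1.55 and -1.26. Tcrg-C4 was at 43.4, 108 and 26.8 CPM, but its UV value was not above control with T-cell scaling (log2 ratio -0.07). In control all 9 cells with Tcrg-C2 also had Tcrg-C1, while in UV 7 of 12 did and in UV plus vitamin D 5 of 6. Tcrg-C2 or Tcrg-C4 without Tcrg-C1 was seen in 2 of 108, 7 of 35 and 1 of 32 cells. Tcrg-C2 was counted in alpha-beta T cells too, at 99.8 CPM in UV and 74.2 CPM in UV plus vitamin D, so a Tcrg-C2 count does not by itself mark a gamma-delta cell. Gamma variable segments were rarely counted: Trgv2 had 3, 13 and 1 counts and Tcrg-V5 had 1, 1 and 5.

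Between UV and control, most genes of the T-cell receptor and its signalling were higher in UV by CPM. Leaving out the genes of the gate, the receptor and CD3 list had 14 measured genes, meaning those with at least 20 counts over both libraries. Of these, 10 lay past 2-fold above control and 0 below, and the median log2 ratio was 1.23. Over all 4702 genes measured, 309 were past 2-fold higher (6.57%) and 520 lower (11.1%), and the median was -0.12. Cd3e, one of the genes of the gate, was at 464 CPM in control, 1235 in UV and 496 in UV plus vitamin D. Lck, the kinase that starts receptor signalling, was at 41.0, 150.3 and 59.0 CPM, and Lat, its scaffold, at 37.5, 150.3 and 50.9. Of the 153 T-cell genes, whose choice drew on the UV cells too, 132 were measured. In CPM, 86 were past 2-fold higher and 2 lower. With T-cell scaling this was 9 higher and 10 lower. The median moved from 1.22 to 0.05 on the log2 scale, which follows from the scaling. The scaling lowers the log2 ratio of every gene with counts in this comparison. Because of the pseudocount, the shift is smaller for genes with few counts. Split by keratinocyte RNA, the T-cell genes had 21 of 67 higher and 5 lower in CPM in the low set (21 UV and 5 control cells, median 0.33), and 12 of 102 higher and 14 lower in the high set (14 and 103 cells, median 0.19). Over all genes, 160 were higher and 38 lower in the low set, and 297 and 558 in the high set. Shares over all genes were not taken within the sets, so whether the T-cell genes exceed them was not tested. Without cells that had another lineage's markers (myeloid, Langerhans or red cell) at 1% of counts or more, 75 were higher and 2 lower of 130 in CPM. Without cells with at least 2 counts over Trac, Trbc1 and Trbc2, 62 of 78 were higher and 1 lower (14 UV and 60 control cells, median 1.87).

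With T-cell scaling, the 9 T-cell genes past 2-fold higher in UV were Anxa6, Cd48, Cd52, Gsdme, Gzmb, Gzmc, Havcr2, Lgals1 and Tcrg-C2. Ctsw was just short of 2-fold. By the naming rule, the 8 largest CPM ratios higher in UV were Havcr2, Pclaf, Hrnr, Lgals1, Tcrg-C2, Cd52, Crip1 and Vim. Without cells with at least 2 alpha-beta receptor counts, the log2 ratio of Hrnr became -0.64. Lgals1, which encodes the lectin galectin-1, had 170 counts in 61 control cells, 369 in 34 UV cells and 141 in 24 UV plus vitamin D cells. At 199 CPM [170, 231], 1733 [1561, 1919] and 378 [318, 446], it was 8.70-fold higher in UV than in control [7.24, 10.5]. Its log2 ratio was 3.06 in CPM, 1.70 with T-cell scaling, 1.83 in the low set and 1.52 in the high set. The keratinocytes had 7.32, 41.8 and 8.15 CPM of Lgals1, so they too were higher in UV, and the alpha-beta T cells of UV had 3938 CPM. Thinned shares of cells with Lgals1 were 32.4% [23.7, 42.1], 80.0% [63.1, 91.6] and 53.1% [34.7, 70.9], against 1.39%, 7.57% and 1.79% of keratinocytes.

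Ctsw, a cysteine protease of cytotoxic lymphocytes, was at 166 CPM [140, 196] in control, 855 [735, 988] in UV and 198 [156, 249] in UV plus vitamin D. The UV value was 5.14-fold above control [4.10, 6.45]. Its log2 ratio was 2.29 in CPM, 0.94 with T-cell scaling, 1.78 in the low set and 1.03 in the high set. Cells with a Ctsw count after thinning were 40.7% [31.4, 50.6] of control, 80.0% [63.1, 91.6] of UV and 34.4% [18.6, 53.2] of UV plus vitamin D cells, so the UV interval did not overlap the others, while keratinocytes had 0.142%, 0.335% and 0.0768%. The thinned shares still carry the differing part of keratinocyte RNA in the cells of each library. Unthinned, the shares were 65.7%, 85.7% and 78.1%. Cd52, a small surface glycoprotein of lymphocytes, was at 92.6, 639 and 131 CPM, with a log2 ratio of UV to control of 2.66 in CPM and 1.33 with T-cell scaling. Havcr2, the inhibitory receptor TIM-3, had 5 counts in 4 control cells, 42 in 14 UV cells and 7 in 5 UV plus vitamin D cells. After thinning it was found in 2.78% [0.577, 7.90], 28.6% [14.6, 46.3] and 6.25% [0.766, 20.8] of cells, and its log2 ratio of UV to control was 3.71 in CPM and 2.72 with T-cell scaling. Control rests on very few Havcr2 counts.

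Natural killer type receptors let T cells sense stress on their neighbours. All 7 measured natural killer type receptor and adaptor genes were past 2-fold higher in UV than in control, with a median log2 ratio of 1.45, and with T-cell scaling none of the 6 in the T-cell group stood 2-fold apart from the other T-cell genes. Klrk1, which encodes NKG2D, was at 50.4, 155 and 93.8 CPM. Klrd1, the CD94 chain, was at 51.6, 150.3 and 88.4. Of 19 measured DETC markers, 12 were higher and 1 lower (median 1.07). Fcer1g was at 496 CPM in control, 1400 in UV and 450 in UV plus vitamin D, and Cd7 at 647, 1432 and 627. With T-cell scaling their log2 ratios of UV to control were 0.10 and -0.24. Of 14 residency and migration genes, 6 were higher and 1 lower. Itgae, the integrin chain that holds T cells to epithelial cadherin, was at 34.0, 141 and 67.0 CPM. After thinning, Itgae was in 7.41% [3.25, 14.1] of control, 42.9% [26.3, 60.6] of UV and 21.9% [9.28, 40.0] of UV plus vitamin D cells, against 0, 0 and 0.0384% of keratinocytes. Its log2 ratio of UV to control was 1.78 in CPM and 0.57 with T-cell scaling, short of 2-fold. Rgs1, a regulator of chemokine receptor signals and the gene with the most counts among the T-cell genes, was at 1899, 3818 and 1093 CPM.

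**Figure D4:**
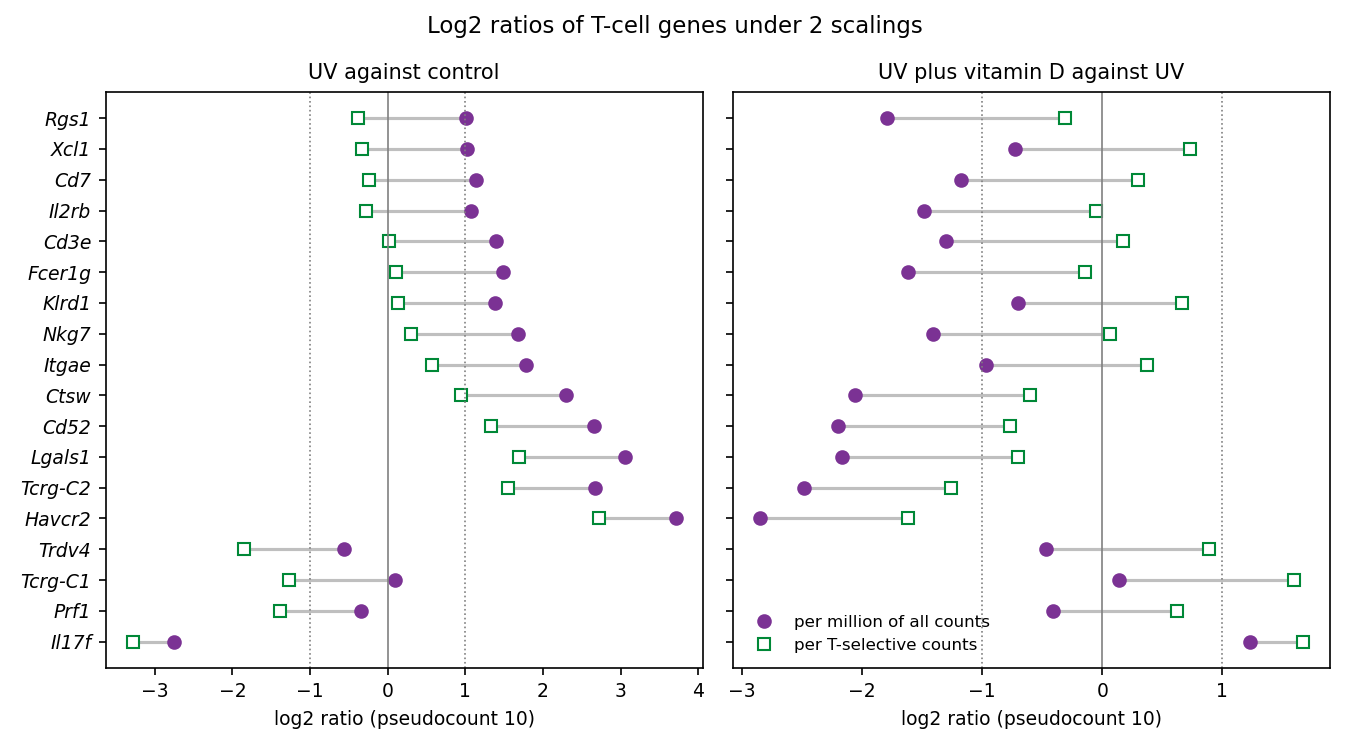
Log2 ratios of 18 T-cell genes in the comparisons with UV (left, over control; right, UV plus vitamin D over UV), in CPM (filled circles) and relative to the 153 T-cell genes (open squares); the panels have different ranges, solid lines are at no difference and dotted lines at 2-fold. Many genes lie past 2-fold in CPM and within 2-fold relative to the T-cell genes. On the latter scale, Lgals1, Cd52, Tcrg-C2 and Havcr2 lie past 2-fold higher and Trdv4, Tcrg-C1, Prf1 and Il17f past 2-fold lower in UV than in control.

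Granzymes and Ifng were counted in few cells, and Nkg7 and Ctsw in many. Of 9 measured members of the cytotoxic and type 1 list, 6 were higher in UV than in control and 0 lower, with a median log2 ratio of 1.69. Nkg7 was the most abundant, at 434, 1404 and 522 CPM, and lay at 0.30 with T-cell scaling. Granzymes, the proteases that enter target cells, were present in 3 of 108 control cells (2.78% [0.577, 7.90]), 10 of 35 UV cells (28.6% [14.6, 46.3]) and 5 of 32 UV plus vitamin D cells (15.6% [5.28, 32.8]). Gzmc had 4 counts in 2 control cells, 136 in 6 UV cells and 63 in 5 UV plus vitamin D cells. A single cell gave 65.4% of the UV counts and another 84.1% of the UV plus vitamin D counts, so its CPM describes those cells. The UV plus vitamin D cell, with 53 Gzmc counts, also held 5 counts of Trac, 13 of Trbc1 and 1 of Trbc2, against 3 of Trdc, while the UV cell, with 89, had none of these alpha-beta chains and 2 counts of Trdc. Gzmb had 2 counts in 1 control cell, 20 in 5 UV cells and 0 in UV plus vitamin D. Granzyme genes are near-identical in part, and their counts may be split between copies. Ifng, the interferon of type 1 responses, had 10 counts in 2 UV cells and 0 in the other libraries. A single UV cell gave 10 of the 20 Gzmb counts and 4 of the 10 Ifng counts, and it held 4 counts of Trac, 3 of Trbc2 and 6 of Cd8a against 2 of Trdc. Prf1, the pore-forming perforin, had 33 counts in 29 control cells, 6 in 5 UV cells and 7 in 7 UV plus vitamin D cells, or 38.7 CPM [26.6, 54.3], 28.2 [10.3, 61.3] and 18.8 [7.54, 38.6]. It was not among the genes higher in UV, and with T-cell scaling its log2 ratio to control was -1.39.

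Interleukin-17 came from few cells in every library. Il17a had 31 counts in 2 control cells, 38 in 5 UV cells and 4 in 1 UV plus vitamin D cell, and Il17f had 49 counts in 2 control cells, 0 in UV and 5 in 1 UV plus vitamin D cell. Cells with Il17a were 1.85% [0.225, 6.53] of control, 14.3% [4.81, 30.3] of UV and 3.13% [0.0791, 16.2] of UV plus vitamin D cells. All 5 UV cells with Il17a also had Trdv4, as did 1 of the 2 control cells. Of those 5, 3 had keratinocyte markers over 2%, and these had 7 to 16 Il17a counts and at most 1 count over Fcer1g, Xcl1, Cd7 and Nkg7. Both control cells with Il17a had Cd163l1, a scavenger receptor of interleukin-17 producing gamma-delta T cells, and Cd163l1 was counted in 2, 7 and 3 cells. Il22, a cytokine that acts on keratinocytes, had 14 counts in 2 control cells, 1 count in UV and 0 in UV plus vitamin D. Of 12 measured genes of the interleukin-17 list, 2 were higher in UV than in control and 2 lower. The Il17a, Il17f and Il22 counts rest on so few cells that no order of the libraries is read from them.

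Genes of the cell cycle, of interferon responses and of vitamin D were taken as general lists. Of 13 measured cell cycle genes, 7 were past 2-fold higher in UV than in control and 0 lower. Pclaf, a partner of the replication clamp, had 5 counts in 4 control cells, 39 in 9 UV cells and 12 in 4 UV plus vitamin D cells, and all 39 UV counts came from cells low in keratinocyte RNA. Mki67, a marker of dividing cells, was among the 7 higher in UV by CPM. It had 10 counts in each library, from 5, 6 and 4 cells, and the totals behind these counts differ between the libraries. Of 16 interferon response genes, 6 were higher, among them Ly6e at 325, 1306 and 632 CPM, and 1 lower, Isg20, with 21, 0 and 6 counts. Vdr, the vitamin D receptor, had 63 counts in 40 control cells, 9 in 5 UV cells and 13 in 9 UV plus vitamin D cells. Its CPM of 73.8, 42.3 and 34.8 was close to that of keratinocytes (65.7, 47.7 and 51.8), so these counts cannot be assigned to the T cells. Cyp24a1, the vitamin D degrading enzyme that the receptor induces, had 0 counts in all 3 libraries. Of 6 measured genes of the vitamin D and nuclear receptor list, 1 was higher in UV than in control (Nr3c1, the glucocorticoid receptor) and 1 lower (Nr1d1, a clock repressor).

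Among the genes lower in UV than in control, the naming rule admits those no lower than in keratinocytes of the control library, the higher of the pair, and the 8 with the largest ratios were Ifi202b, Il33, Igfbp3, Sema3c, Ralb, Trim16, Htra1 and F2rl1. Ifi202b, an interferon-inducible DNA sensor, was at 1762, 150.3 and 268 CPM, and in keratinocytes at 1354, 535 and 674. Il33, an epithelial alarmin, was at 227, 18.8 and 16.1 CPM, and in keratinocytes at 186, 81.9 and 51.9. In cells low in keratinocyte RNA, Ifi202b had 0, 1 and 0 counts and Il33 had 0 in each. Of the 23 keratinocyte markers, 7 were lower in UV and 2 higher (median -0.64). Gata3, a transcription factor that T cells and keratinocytes share, was at 200.3, 84.5 and 158 CPM, below its level in keratinocytes (252, 156 and 225).

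Comparing UV plus vitamin D with UV, 365 of 3256 genes measured were past 2-fold higher (11.2%) and 268 lower (8.23%), and the median was 0.16. Lists of T-cell genes had medians below 0. In the receptor and CD3 list without the genes of the gate 7 of 11 were past 2-fold lower and 0 higher (median -1.29), in the DETC list 10 of 18 (-1.20), in the natural killer type list 4 of 7 (-1.19), in the cytotoxic list 6 of 8 (-1.68) and in the interleukin-17 list 4 of 6 (-1.65). Of the general lists, 7 of 13 interferon response genes (-1.03) and 6 of 13 cell cycle genes (-0.94) were past 2-fold lower. The interferon list summed to 11700 CPM in UV and 8968 in UV plus vitamin D cells, against 8225 and 8437 in keratinocytes of those libraries, and the part of keratinocyte RNA in these counts was not tested. The T-cell genes as a whole had 68 of 96 lower and 0 higher, and with T-cell scaling 6 lower and 3 higher, with the median set from -1.36 to -0.06 by the scaling itself. The 6 lower were Gsdme, Gzmb, Havcr2, Il17a, Prelid2 and Tcrg-C2, and the 3 higher Lpxn, Serpinb6b and Tcrg-C1. In cells low in keratinocyte RNA 3 of 68 were lower (Gzmb, Havcr2 and Lat) and 6 higher (median 0.37), with 5 and 21 cells compared, and in the other cells 13 of 48 were lower and 1, Tcrg-C1, higher (median -0.60). Over all genes, 74 were lower and 51 higher in the low set, and 121 and 211 in the other cells. Shares over all genes were not taken within the sets. Without cells with at least 2 alpha-beta receptor counts, 34 of 39 T-cell genes were lower and 0 higher in CPM (6 and 14 cells, median -1.97). The genes with the largest ratios by the naming rule were, among the higher, Lce1m, Gsta2, Sprr2g, Atxn7l3b, Sprr2h, Klk9, Crct1 and Cfap57. Lce1m and the Sprr2 genes encode proteins of the cornified envelope, and Lce1m was at 162, 61.1 and 946 CPM with 321, 244 and 503 in keratinocytes. Among the lower were Havcr2, Snhg15, Vim, Tcrg-C2, Fos, Pmp22, Cd52 and Pclaf. Fos, an immediate early gene, was at 655, 1644 and 292 CPM, and Vim, an intermediate filament of non-epithelial cells, at 127, 667 and 110.

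The remaining comparison set UV plus vitamin D cells against control. Of 5072 genes measured, 266 were past 2-fold higher (5.24%) and 303 lower (5.97%), and the median was -0.01. In the receptor and CD3 list without the genes of the gate 0 of 14 passed 2-fold in either direction (median 0.30), and in the DETC list 0 of 17 were higher and 2 lower, Cd69 and Trdv4. Cd69, a residency and activation receptor, was at 76.2, 117 and 21.4 CPM. In the cytotoxic list only Gzmc, with most counts from a single cell, was past 2-fold, and in the interleukin-17 list 5 of 11 were lower. The T-cell genes had 3 of 119 higher and 11 lower, and 5 and 10 with T-cell scaling. Without cells with at least 2 alpha-beta receptor counts, 7 of 66 were higher and 11 lower in CPM (6 and 60 cells, median -0.17). The split by keratinocyte RNA gave opposite directions. In the low set, with 5 cells from each library, 11 of 30 were higher and 1 lower (median 0.74), and in the high set, with 27 and 103 cells, 0 of 102 were higher and 16 lower (median -0.39). Over all genes, 42 were higher and 11 lower in the low set, and 277 and 329 in the high set. Shares over all genes were not taken within the sets. The T-cell genes took 1.15% and 1.23% of counts in these libraries, and keratinocyte markers 11.2% and 8.37%. Of the 23 keratinocyte markers, 4 were higher and 5 lower (median 0.03). The largest ratios by the naming rule were, among the higher, Slurp1, Lor, Klk9, Wfdc21, Csta1, Crct1, Tmprss11f and Lce1m, and among the lower Thbs1, Il33, Dsg3, Mt2, Ifi202b, Krt14, Lima1 and Itga6. Lor, loricrin of the outer epidermis, was at 419, 1559 and 4271 CPM, and in keratinocytes at 580, 1226 and 1173. Krt14, the keratin of basal cells, was at 1870, 611 and 327 CPM, and in keratinocytes at 930, 1273 and 644. In cells low in keratinocyte RNA, Krt14 had 0, 1 and 0 counts and Lor 2, 3 and 2.

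Side by side with the alpha-beta T cells of UV, the gamma-delta T cells of UV had more Fcer1g (1400 against 308 CPM) and Cd7 (1432 against 178), and less Icos, a co-stimulatory receptor (79.8 against 739), Cxcr6, a homing receptor (141 against 539), and Lgals1 (1733 against 3938). Nkg7 was at 1404 and 1654 CPM and Ctsw at 855 and 941. Differences between the cell sets were not tested. Signal of other lineages lay in few gamma-delta T cells. Myeloid and Langerhans markers made up at least 1% of counts in 2 control cells, 2 UV cells and 0 UV plus vitamin D cells. Together with 1 control cell rich in haemoglobin, those cells held 486 of the 514 control counts of Cd74, the invariant chain of antigen presentation. They held 450 of the 463 UV counts. The same cells held 123 control and 35 UV counts of Cd207, a marker of Langerhans cells. Over all gamma-delta T cells, Lyz2, limited by the gate, had 0, 0 and 1 counts and Adgre1 had 0, 3 and 0. A control cell had 64.1% of its counts from haemoglobin genes. Ly6c2, a marker of monocytes and of some T cells, had 42 counts in UV, all in a single cell.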

How the data were processed

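Cells of 3 whole-skin libraries were measured by single-cell RNA sequencing. The authors deposited raw counts per gene and barcode, 1 table a library; the sources used here do not say whether they are molecules or reads. Per the submitters' processing notes, FastQC, fastp, STAR and featureCounts were used, with no versions and a human build, although the symbols are mouse symbols, so the authors' build is unsettled and coordinates are those of the matched mouse annotation. Barcodes had been selected before deposit.

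The gate described in the report was applied to the deposited counts. Counts were summed over gated cells of a library and scaled to CPM here. Log2 ratios used a pseudocount of 10 CPM, genes with at least 20 counts over both libraries, and a 2-fold limit. Folds against a gene with 0 counts use a floor of 3 counts. Shares have exact Clopper-Pearson intervals, CPM exact Poisson intervals, folds exact conditional intervals and ratios of shares log-scale counting intervals. Shares of cells with a count were also taken after thinning each cell to 2500 counts; no cell was below that. The summing and scaling steps were tested on simulated data.

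Named genes were, per comparison and direction, the 8 largest ratios past 2-fold among genes that in the higher library had 30 or more counts, occurred in at least 20% of gated cells, had at most 50% of counts from 1 cell and were no lower than in keratinocytes, plus members of fixed lists. Mitochondrial, ribosomal protein, haemoglobin and unnamed genes were left out of that ranking. Anxa6, Cd48, Gsdme, Prelid2, Lpxn, Serpinb6b and the genes used to describe other lineages were named after their values were seen. The members, lists and rule were chosen with earlier results of these data known. The T-cell scaling, the split at 2% keratinocyte markers and the removal of cells with another lineage were added after seeing the data. Doublets were not called. Python 3.11.15, numpy 2.4.6, scipy 1.17.1, pandas 2.3.3 and matplotlib 3.10.9 were used.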

Additional observations from a re-analysis of the deposited data

Results flagged for a closer look

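The share of alpha-beta T cells differed from that of gamma-delta T cells in direction. In UV against control its log2 ratio was 4.82, while that of gamma-delta T cells was -0.89. In UV plus vitamin D against control it was 2.48, against -1.20. Among cells with keratinocyte markers under 2%, the gamma-delta log2 ratios were 2.81 and 0.55, the same direction as the alpha-beta cells, of which 69 of 85 in UV were under 2%. Each value compares a pair of single libraries that share the control, and the difference between the cell types was not tested.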

How the results depend on the processing

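Each alternative was run by itself, and limits of depth apply throughout: genes with under 20 counts in a setting gave no value. The log2 ratio of the gamma-delta share was -0.89 (UV against control), -0.31 (UV plus vitamin D against UV) and -1.20 (UV plus vitamin D against control). With cells under 2% keratinocyte markers it was 2.81, -2.26 and 0.55, with the other cells -2.14, 0.76 and -1.38, and without cells with at least 2 alpha-beta receptor counts -1.36, -1.41 and -2.77. The other gates and thinning gave values nearer to the first.

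Genes past 2-fold were 309 higher and 520 lower in UV against control, 365 and 268 in UV plus vitamin D against UV, and 266 and 303 in UV plus vitamin D against control. In that order, a pseudocount of 50 gave 131, 99, 103, 121, 98 and 51, no minimum count gave 728, 812, 888, 867, 405 and 433, at least 100 counts gave 89, 134, 90, 60, 102 and 77, and cells under 2% keratinocyte markers gave 160, 38, 51, 74, 42 and 11. For UV against control, the lower count was 816 with each cell weighted the same and 899 without cells with alpha-beta receptor counts. For UV plus vitamin D against UV, the higher count was 813 with each cell weighted the same, 648 without the deepest 5% of cells, 218 without cells with alpha-beta receptor counts and 211 at or over 2% keratinocyte markers, and the lower count was 142 and 121 in the last settings.

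Among the named genes past 2-fold as reported, directions turned as follows, as log2 ratios. With T-cell scaling, UV against control became -0.066 for Tcrg-C4, -0.24 for Cd7, -0.34 for Xcl1, -0.38 for Rgs1, -0.28 for Il2rb, -0.065 for Fos and -0.11 for Csta1, and UV plus vitamin D against UV became 0.17 for Cd3e, 0.047 for Cd3g, 0.29 for Cd7, 0.063 for Nkg7 and 0.14 for Mt2. Under 2% keratinocyte markers, UV against control became -0.69 for Tcrg-C4, -0.011 for Fcer1g, -0.044 for Xcl1, -0.47 for Rgs1, -0.70 for Il2rb and -0.070 for Klrd1. UV plus vitamin D against UV became 0.38 for Tcrg-C4, 0.24 for Cd3e, 0.49 for Cd3g, 0.039 for Fcer1g, 0.53 for Cd7, 0.46 for Nkg7, 0.14 for Rgs1, 0.88 for Gzmc and 0.11 for Pclaf. Without alpha-beta receptor counts, UV against control became -0.22 for Tcrg-C4, -0.64 for Hrnr, -1.53 for Slurp1, -2.12 for Lor and -2.81 for Csta1, and UV plus vitamin D against control -2.30 for Hrnr, 0.31 for Igfbp3, -0.99 for Lce1m, -2.47 for Crct1, -2.98 for Slurp1, -0.86 for Lor and -0.80 for Csta1. With at least 2 Trdc counts, UV against control became -0.33 for Lor and -2.52 for Wfdc21. Genes short of 2-fold also changed sign and are not all listed: with T-cell scaling, Tcrg-C1 went from 0.096 to -1.27 in UV against control, and in UV plus vitamin D against UV Trdv4 went from -0.46 to 0.89, Klrd1 from -0.70 to 0.66 and Itgae from -0.97 to 0.38. The cause was not tested. No paired analysis was possible because each group is 1 library.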

Other observations

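A few cytokine genes outside the comparisons are given here, chosen after their values were seen. The colony stimulating factor Csf2 had 14 counts in 10 control cells and 0 in either irradiated library, where 3 counts would be 14.1 and 8.04 CPM, against 16.4 CPM in control. Il13, a type 2 cytokine, had 17 counts in 8 control cells, 4 in 4 UV cells and 5 in 3 UV plus vitamin D cells, or 19.9, 18.8 and 13.4 CPM. Ccl20, a chemokine that draws CCR6-bearing cells, had 93 counts in 5 control cells, 64.5% of them from a single cell, and was at 29.0 CPM in keratinocytes.

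Barcodes with at least 1 Trdc count but no Cd3 count numbered 93 in control, 17 in UV and 43 in UV plus vitamin D, close to or above the number selected in the last. They were not analysed here.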
